A study of Mus musculus with 4 samples.

Results

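The genes described here are 39 autophagy and lysosome genes, given as a list of mouse gene symbols and matched to the Ensembl identifiers of the deposited table. The table held 30049 genes, 38 of the listed genes were among them, and 37 were among the 12038 genes tested, those averaging 1 TPM (a length-corrected share of the transcripts) or more over all libraries. Ulk1, a kinase that starts autophagy, was not analysed here. Of the 39 symbols, 28 belong to autophagosome formation, 3 to cargo receptors and 8 to the lysosome.

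RNA sequencing was performed on whole mouse embryos at the 2-cell stage. All embryos were wild type, of the BDF1*BDF1 F2 background, from parents 8 to 12 weeks old. Zygotes taken 18 to 20 h after hCG, the hormone injected to induce ovulation, were cultured for 24 h in KSOM, a culture medium for preimplantation embryos. The control group had KSOM alone, the DMSO group had KSOM with 2% dimethyl sulfoxide (DMSO), a widely used drug solvent, and each group had 2 libraries, so n = 2 per group throughout. The 50 embryos collected per group were pooled for lysis and amplified with a kit for very small amounts of RNA. Whether each library held 50 embryos, and whether the 2 replicates of a group came from separate cultures, is not stated, so p-values measure the spread between these libraries, which may be technical. In pooled embryos, fewer cells of a kind and less RNA per cell cannot be told apart.

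TPM summed over the genes of the table was 768174 and 780527 for the control replicates and 772487 and 799166 for the DMSO replicates. These sums fall short of complete TPM libraries, so shares of TPM given below are shares of the table. In the same order, 18661, 18369, 18705 and 18952 genes had a value above 0. TPM is a share of the RNA corrected for transcript length, and it keeps no record of read depth, so the depth behind each value is unknown. Differences are given as DMSO minus control in units of log2(TPM + 1), where the added 1 makes changes of low genes look smaller than they are. A gene was called when the limma adjusted p (Benjamini-Hochberg over all genes tested) was under 0.05. An exact permutation test of 2 libraries against 2 cannot give a two-sided p below 0.33.

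Autophagy encloses cytoplasm in a double membrane, the autophagosome, and delivers it to the lysosome for breakdown. The ULK kinase complex starts the process, a class III phosphatidylinositol 3-kinase marks the membrane, ATG9, ATG2 and WIPI proteins supply and shape it, and a conjugation system attaches the small ATG8 proteins (the LC3 and GABARAP families) to it. Receptors such as SQSTM1 tether cargo to ATG8 proteins, and cathepsins degrade it in the acid lumen of the lysosome. In the mouse, autophagy is induced soon after fertilization, and embryos from oocytes lacking Atg5 that are fertilized by Atg5-deficient sperm stop before the blastocyst stage.

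The autophagy and lysosome genes were mostly lower in DMSO-treated embryos. Of the 37 tested, 9 fell (24.3%) and 0 rose, while 14.1% of all genes tested were called lower and 6.42% higher. The 9 were Pik3c3, Atg14, Atg3, Atg7, Map1lc3a, Gabarapl2, Lamp1, Lamp2 and Ctsb. Without a threshold, 29 of the 37 differences were below 0 and 8 above, against 53.2% below 0 over all genes tested. The median difference was -0.71, with a range from -2.58 to 1.05, and the median over all genes tested was -0.09. Both DMSO libraries lay below both control libraries for 24 of the 37 genes (64.9%), against 38.7% of all genes tested. The reverse order held for 5 genes (13.5%), against 31.1%. At an unadjusted p under 0.05, limma gave 18 genes lower and 2 higher, against 24.3% and 15.8% of all genes tested. Atg2b and Tfeb had a mean under 1 TPM in the DMSO libraries and were tested only through their control level.

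The calls rest on few libraries and on the filter. With either control library or DMSO replicate 1 left out, the listed genes lost their lower calls, and so did all other genes tested. This loss is thus not particular to the listed genes. The median difference of the 37 genes was -0.784, -0.835 and -0.783 without control replicate 1, control replicate 2 and DMSO replicate 1. Over all genes tested it was -0.0225, -0.147 and -0.107. Without DMSO replicate 2 the medians were -0.838 and -0.0494. In that fit Atg7, Lamp1 and Pik3c3 lost their call, and Atg16l1 and Atg9a gained one. These fits assume that the lone library of a group varies like the pair of the other. In each of the 4 fits, all 9 called genes kept a difference below 0, with adjusted p from 0.029 to 0.299. Without the filter on low genes their adjusted p ran from 0.102 to 0.169, so 0 were called. In that fit 0 of all 22257 genes tested were called lower. Atg7, Lamp1 and Map1lc3a lost their call with a pseudocount of 0.1, without the trend and under both other scalings, Gabarapl2 lost it with median-ratio scaling, and Ctsb lost it with quantile normalization. Over all genes tested, 1697 were called lower and 773 higher, and the split was 1261 and 949 with median-ratio scaling and 1121 and 1076 with quantile normalization. The listed genes gave 0 higher calls under both. With a replicate block, 18 listed genes were called lower and 3 higher (Atg4a, Uvrag and Wipi1), against 2981 and 2151 over all genes. No label ties the replicate numbers to a batch. With a minimum mean of 5 TPM, 12 of the 30 listed genes tested were called lower, where 1684 of all 7470 genes tested were. The 12 were 8 of the 9 (Pik3c3 was below the filter) and Atg9a, Becn1, Map1lc3b and Rb1cc1. Map1lc3b was also called with quantile normalization.

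**Figure D1:**
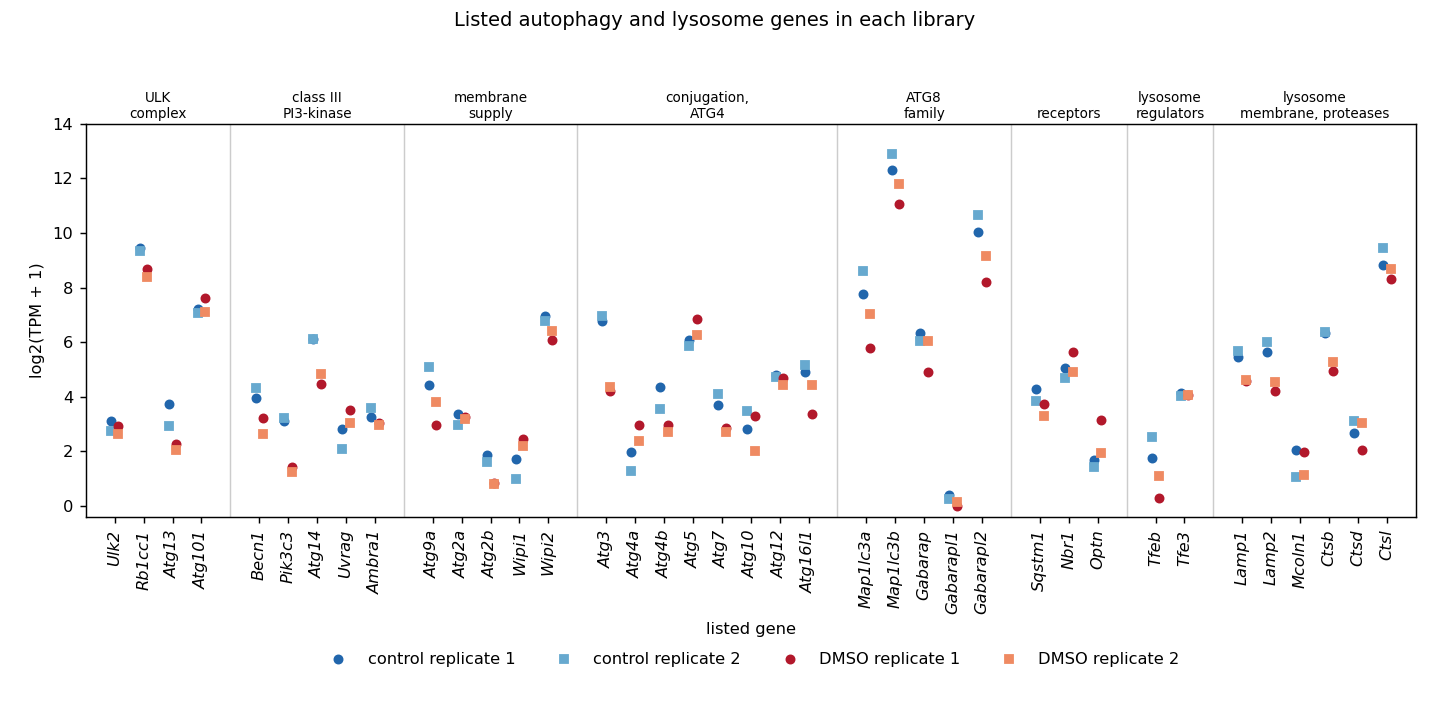
Level of each of the 38 listed genes found in the table, as log2(TPM + 1) on the vertical axis, in the 2 control (blue) and 2 DMSO (red) libraries, grouped by role. Map1lc3b was the most abundant, and the DMSO points lie below both control points for most genes of the ATG8 and lysosome groups.

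**Figure D2:**
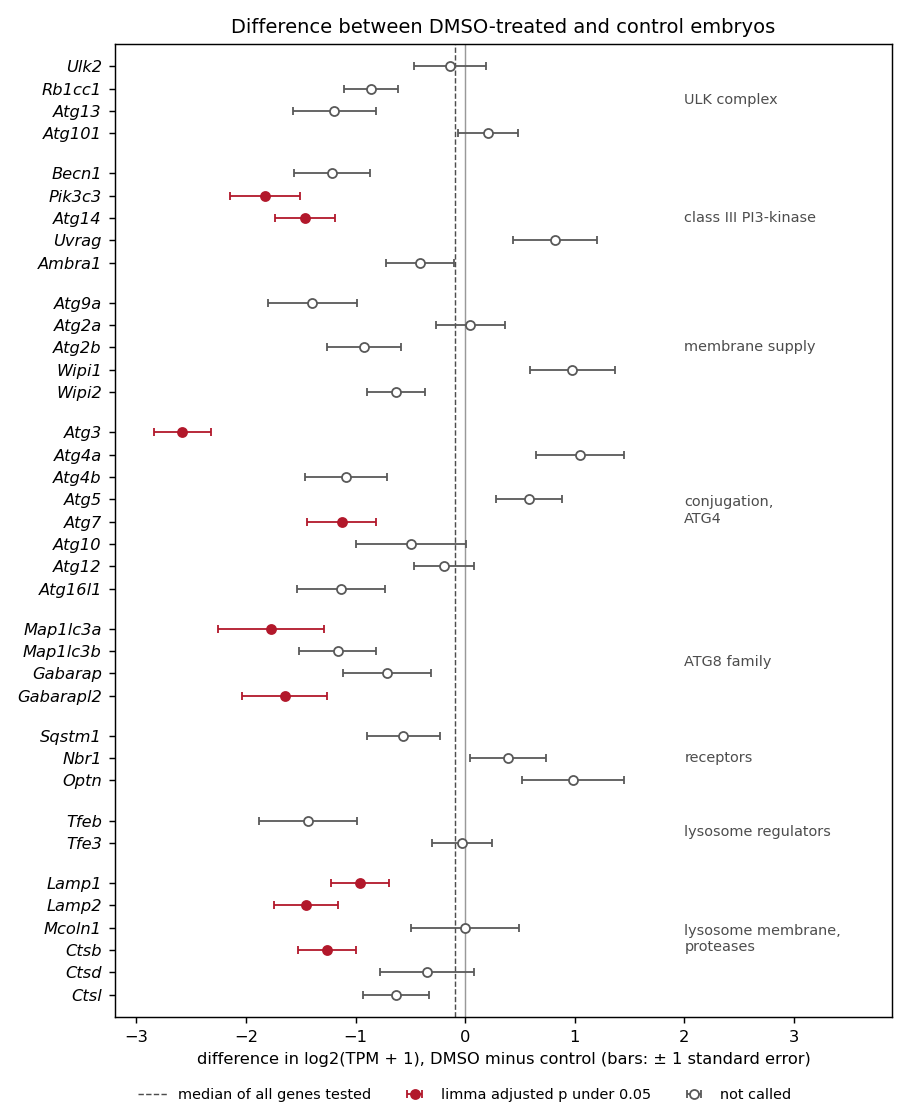
Difference in log2(TPM + 1), DMSO minus control, for the 37 genes tested, with bars of 1 standard error, filled points for the 9 called genes and a dashed line at the median of all genes tested (-0.09). All filled points lie below 0, from Atg3 at -2.58 to Lamp1 at -0.96.

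Many lysosomal genes carry the CLEAR motif, to which the transcription factors TFEB and TFE3 bind. Its 6-base core, CACGTG, reads the same on both strands, and it is also bound by other factors of the helix-loop-helix class. RefSeq promoters on GRCm38.p6, from 250 bases before to 50 bases after the gene start, were matched for 32 of the 39 genes. The core was present in 8 of the 32 (25.0%), against 8.09% of 27025 genes with a promoter and 11.3% of the 8479 of them that were tested here. It lay in 4 of 7 lysosome promoters, in 4 of 22 formation promoters and in 0 of 3 receptor promoters. The 8-base form GTCACGTG or its reverse complement CACGTGAC, which contains the core, was in 6 of the 32 (18.8%), against 2.55% of all genes with a promoter and 4.58% of those tested, and the 8-base form followed by AC, the full palindrome, was in 0. The 4 promoters below are shown because they hold 2 or more copies of the core, in capitals, and because the calls of the genes differed. Lamp1 and Atg3 were called lower, and Mcoln1 (-0.0034, SE 0.49) and Ctsd (-0.35, SE 0.43) were not called. Whether these genes differed in their response was not tested. Lamp1 lies at chr8:13158911-13159210 on the plus strand, Atg3 at chr16:45158579-45158878 on the plus strand, Mcoln1 at chr8:3500269-3500568 on the plus strand and Ctsd at chr7:142387778-142388077 on the minus strand.
Lamp1: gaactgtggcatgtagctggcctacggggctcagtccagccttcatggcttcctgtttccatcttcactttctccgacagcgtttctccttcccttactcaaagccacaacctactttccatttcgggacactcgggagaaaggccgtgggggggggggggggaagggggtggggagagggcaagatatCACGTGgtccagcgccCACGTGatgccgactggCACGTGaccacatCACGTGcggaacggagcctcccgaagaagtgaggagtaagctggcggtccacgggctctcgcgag
Atg3: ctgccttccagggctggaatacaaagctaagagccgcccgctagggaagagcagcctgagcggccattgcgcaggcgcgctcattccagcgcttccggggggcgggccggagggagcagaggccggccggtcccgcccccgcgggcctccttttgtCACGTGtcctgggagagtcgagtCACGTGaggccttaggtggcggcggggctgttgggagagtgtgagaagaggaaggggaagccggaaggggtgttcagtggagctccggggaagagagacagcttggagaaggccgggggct
Mcoln1: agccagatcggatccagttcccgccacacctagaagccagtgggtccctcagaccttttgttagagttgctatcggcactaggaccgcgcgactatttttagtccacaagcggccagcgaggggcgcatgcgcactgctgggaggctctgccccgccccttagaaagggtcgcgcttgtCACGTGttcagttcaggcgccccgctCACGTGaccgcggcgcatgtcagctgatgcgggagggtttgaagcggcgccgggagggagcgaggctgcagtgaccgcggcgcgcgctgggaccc
Ctsd: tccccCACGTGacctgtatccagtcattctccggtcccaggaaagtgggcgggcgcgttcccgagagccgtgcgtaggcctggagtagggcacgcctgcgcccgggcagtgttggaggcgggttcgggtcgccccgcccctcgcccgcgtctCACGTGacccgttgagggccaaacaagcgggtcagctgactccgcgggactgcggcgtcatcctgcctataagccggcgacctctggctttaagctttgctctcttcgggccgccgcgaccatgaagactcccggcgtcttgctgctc

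Lamp1 had 4 copies, all within the 61 bases before its start. Atg3, Mcoln1 and Ctsd had 2 each. Atg14, Atg5, Atg7 and Ctsl had 1 each, and the RefSeq starts of Atg14, Atg7 and Ctsl lie 2215, 27999 and 370 bases inside the gene as GENCODE M21 draws it. Among the genes without the core, the starts of Atg4b, Wipi2 and Wipi1 lie 3405, 1886 and 578 bases inside. The stretches searched for these genes do not reach the GENCODE start, so a core there would be missed. Of the 8 genes with the core, 4 were called lower (Atg14, Atg3, Atg7 and Lamp1), and of the 24 listed genes whose promoter lacked it, which include the untested Ulk1 and Gabarapl1, 2 were (Gabarapl2 and Lamp2). The other called genes, Pik3c3, Map1lc3a and Ctsb, had no matched promoter and are outside this count. Over all tested genes with a promoter, 19.6% of the 954 with the core and 14.3% of the 7525 without it were called lower. A match describes these letters and is not evidence of binding.

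**Figure D3:**
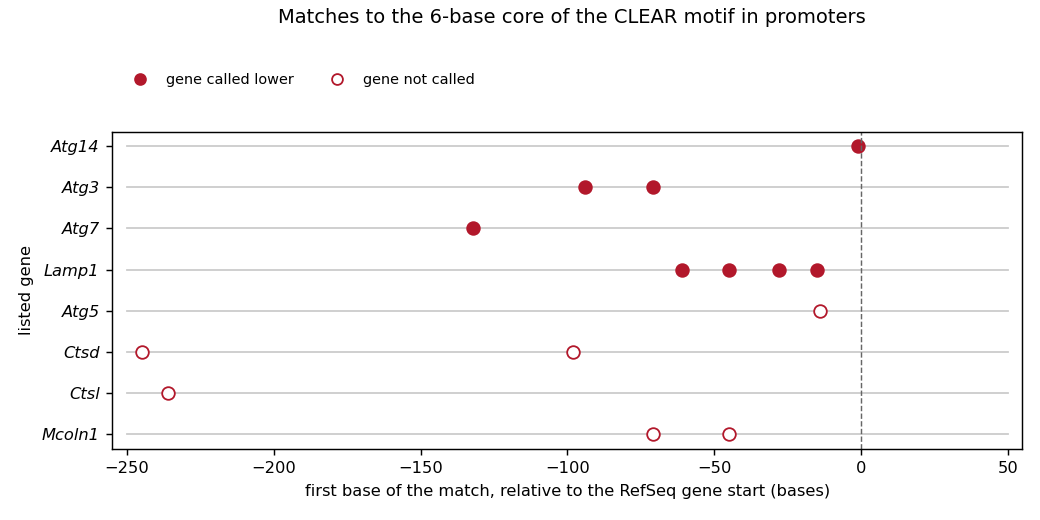
First base of each CACGTG match in the promoters of the 8 listed genes that hold one, in bases relative to the RefSeq gene start (dashed line), with filled points for genes called lower. The 14 matches lie from -245 to -1, and the 4 of Lamp1 lie between -61 and -15.

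The ULK complex, which receives signals from mTOR and AMPK, had 4 genes tested and 0 called. Of all genes tested, 14.1% were called lower and 6.42% higher, so a count over 4 genes is no result about the complex. Rb1cc1, which encodes the scaffold FIP200, was the most abundant of them, with 699 and 645 TPM in control and 407 and 337 TPM in DMSO libraries. Its groups did not overlap, and the difference of -0.86 (SE 0.25) missed the threshold at a limma adjusted p of 0.0525. Atg13, which links the kinase to FIP200, measured 12.4 and 6.66 TPM in control and 3.80 and 3.10 TPM in DMSO libraries (-1.19, SE 0.38). Its groups did not overlap either, at an adjusted p of 0.0685. For the kinase gene Ulk2 (7.56 and 5.71 against 6.58 and 5.25 TPM) and for Atg101, which stabilizes ATG13 (148 and 135 against 194 and 137 TPM), the groups overlapped.

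Of the class III PI3-kinase genes, 2 of 5 fell (40.0%, against 14.1% of all genes tested), and both encode subunits of the complex that acts in autophagosome formation. Atg14, on chromosome 14 (ENSMUSG00000037526), encodes the subunit that directs the kinase to the forming autophagosome. It measured 67.7 and 68.1 TPM in control and 21.05 and 27.5 TPM in DMSO libraries, or 35.7% of the control mean. The difference was -1.46 (SE 0.27, adjusted p = 0.0237), and it ran from -1.64 to -1.27 with 1 library left out. Pik3c3, on chromosome 18 (ENSMUSG00000033628), encodes the catalytic subunit VPS34, which also serves endosomes. It measured 7.56 and 8.45 TPM in control and 1.69 and 1.39 TPM in DMSO libraries, or 19.2% of the control mean. The difference was -1.83 (SE 0.32, adjusted p = 0.0221), and the replicates of each group lay close to each other in both genes.

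The remaining 3 genes of the group were not called. Becn1, the Beclin 1 subunit shared by the kinase complexes, measured 14.5 and 19.0 TPM in control and 8.28 and 5.22 TPM in DMSO libraries (-1.21, SE 0.34, adjusted p = 0.0509). Of the 31-base words in its transcripts, 40.0% also occur in transcripts of another gene, mainly its neighbour Cntd1 (39.6%), so its level is less certain. Ambra1, which regulates Beclin 1, measured 8.52 and 11.01 TPM in control and 7.27 and 6.80 TPM in DMSO libraries. Uvrag, which takes the place of ATG14 in the endosomal form of the complex, was at 5.998 and 3.24 TPM in control and at 10.3 and 7.20 TPM in DMSO libraries. Its difference of 0.82 (SE 0.38, adjusted p = 0.157) was above 0, unlike those of the other 4 genes of the group. Of its words, 19.3% occur in other genes, and 1.2% occur in Olfr624, listed at 1421 and 598 TPM in control and 2378 and 1316 TPM in DMSO libraries, so its level is less certain too, and the part of the shared words in its difference was not tested.

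Of the 5 genes that supply or mark the membrane, 0 were called, against 14.1% lower and 6.42% higher over all genes tested. With 5 genes, this count is no result about the group. Wipi2, whose protein binds the phosphatidylinositol 3-phosphate made by VPS34 and recruits ATG16L1, was the most abundant. It measured 124 and 109.8 TPM in control and 65.8 and 84.7 TPM in DMSO libraries, a difference of -0.63 (SE 0.27, adjusted p = 0.125), and the groups did not overlap. Atg9a, the lipid scramblase carried on small vesicles, measured 20.8 and 33.1 against 6.73 and 12.9 TPM (-1.39, SE 0.40, adjusted p = 0.0532), with 32.4% of its words shared. Atg2b, a lipid transfer protein gene, measured 2.68 and 2.05 against 0.81 and 0.73 TPM. Its paralog Atg2a overlapped between groups, at 9.37 and 6.80 against 8.46 and 8.14 TPM. Wipi1, a paralog of Wipi2, was at 2.27 and 0.967 TPM in control and at 4.42 and 3.61 TPM in DMSO libraries (0.98, adjusted p = 0.109). Whether the paralogs of a pair differed in their response was not tested.

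The conjugation system had the listed gene with the largest difference. Atg3, on chromosome 16 (ENSMUSG00000022663), encodes the E2-like enzyme that transfers ATG8 proteins to phosphatidylethanolamine. It measured 107 and 123 TPM in control and 17.5 and 19.3 TPM in DMSO libraries, so the groups stood far apart and the DMSO mean was 15.9% of the control mean. The difference was -2.58 (SE 0.26, adjusted p = 0.0181), from -2.68 to -2.48 with 1 library left out. Atg7, on chromosome 6 (ENSMUSG00000030314), encodes the E1-like enzyme that activates both ATG12 and the ATG8 proteins. It measured 11.9 and 16.2 TPM in control and 6.17 and 5.48 TPM in DMSO libraries (-1.13, SE 0.32), and its adjusted p of 0.0499 lay just inside the threshold.

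Apart from Atg7, which also serves it, the listed genes of the ATG12 branch, which makes the complex that guides ATG3 to the membrane, were not called. Atg5, the most abundant of the conjugation genes by the mean of all 4 libraries though below Atg3 in control, measured 66.2 and 57.3 TPM in control and 115 and 74.9 TPM in DMSO libraries. Both DMSO libraries were above both control libraries, and the difference of 0.58 (SE 0.30) had an adjusted p of 0.192. Atg12, which is joined to ATG5, lay close in all libraries, at 26.6 and 25.4 against 25.0 and 20.5 TPM. Its difference of -0.19 was above 0 after quantile normalization. Atg16l1, the partner of the conjugate, measured 29.1 and 34.5 against 9.27 and 20.6 TPM (-1.13, adjusted p = 0.0865), and Atg10, the E2-like enzyme of the branch, overlapped at 6.01 and 10.2 against 8.84 and 3.03 TPM.

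The ATG4 proteases trim ATG8 proteins before conjugation and release them from the membrane. Atg4b measured 19.3 and 10.6 TPM in control and 6.90 and 5.59 TPM in DMSO libraries (-1.09, adjusted p = 0.0796). Atg4a measured 2.93 and 1.44 TPM in control and 6.85 and 4.21 TPM in DMSO libraries (1.05, SE 0.40, adjusted p = 0.104). The groups did not overlap in either gene, with opposite orders. Atg4a shares 60.8% of its 31-base words with the pseudogene Atg4a-ps, so its level is uncertain.

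The ATG8 family carried most of the RNA of the list. Its 5 genes together reached 6400 and 9683 TPM in control and 2542 and 4332 TPM in DMSO libraries. Of the TPM summed over the table, the 38 listed genes found in it took 1.11% and 1.53% in control and 0.513% and 0.712% in DMSO libraries. Both DMSO sums lay below both control sums, and replicate 2 was above replicate 1 in each group. Of the 4 ATG8 genes tested, 2 fell, and both DMSO libraries lay below both control libraries in all 4, where the shares of all genes tested were 14.1% and 38.7%.

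Map1lc3b, on chromosome 8 (ENSMUSG00000031812), encodes LC3B, the usual marker protein of autophagosomes. It measured 5068 and 7629 TPM in control and 2162 and 3568 TPM in DMSO libraries, and it ranked 15 and 10 among all genes of the control libraries and 35 and 24 among those of the DMSO libraries. The DMSO mean was 45.1% of the control mean, with a difference of -1.16 (SE 0.35) that missed the threshold at an adjusted p of 0.0588. The processed pseudogene Gm6055, which shares sequence with it, was listed at 452 and 985 TPM in control and 191 and 394 TPM in DMSO libraries. Map1lc3b summed with its 3 pseudogenes gave a difference of -1.17, a sum chosen after seeing the data.

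Gabarapl2, on chromosome 8 (ENSMUSG00000031950), encodes GATE-16 of the GABARAP subfamily, which acts late in autophagosome closure and fusion. It measured 1037 and 1596 TPM in control and 296 and 569 TPM in DMSO libraries, or 32.8% of the control mean. The difference was -1.65 (SE 0.39, adjusted p = 0.0343), from -2.12 to -1.18 with 1 library left out, and 15.3% of its words occur in another gene. Map1lc3a, on chromosome 2 (ENSMUSG00000027602), encodes LC3A, a close paralog of LC3B. It measured 215 and 392 TPM in control and 54.2 and 130.4 TPM in DMSO libraries (-1.77, SE 0.48, adjusted p = 0.0462). In both genes the replicates of a group differed more than in Atg3 or Atg14, and no DMSO library reached the lower control library. Gabarap measured 80.0 and 64.9 against 29.4 and 64.3 TPM (-0.71, adjusted p = 0.222), with control replicate 2 and DMSO replicate 2 almost level. Gabarapl1 was under 1 TPM in every library and listed at 0 in DMSO replicate 1.

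The 3 cargo receptors, which bind ubiquitin or cargo and ATG8 proteins at once, gave 0 calls at an adjusted p under 0.05 and 0 at an unadjusted p under 0.05 with limma. Of all genes tested, 14.1% were called lower and 6.42% higher, with 24.3% and 15.8% at the unadjusted threshold. A count over 3 genes is thus no result about the receptors. Nbr1, the most abundant, measured 32.6 and 24.5 TPM in control and 48.5 and 28.7 TPM in DMSO libraries (0.39, SE 0.35, adjusted p = 0.421), and the groups overlapped. Sqstm1, which encodes p62, measured 18.7 and 13.3 TPM against 12.2 and 8.76 TPM (-0.56, SE 0.33, adjusted p = 0.239). Optn, which encodes optineurin, was low in control at 2.25 and 1.66 TPM and stood at 7.87 and 2.82 TPM in DMSO libraries (0.98, SE 0.47, adjusted p = 0.164). The 3 genes thus did not share a direction, and replicate 1 was above replicate 2 in every case.

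Of the 8 lysosome genes, 3 fell (37.5%, against 14.1% of all genes) and all 8 differences were below 0 (against 53.2% of all genes), though not under every alternative. Mcoln1 and Tfe3 were above 0 with median-ratio scaling and without control replicate 1, Tfe3 with quantile normalization, Mcoln1 with a pseudocount of 0.1 and without DMSO replicate 2, and Ctsd without DMSO replicate 1. Lamp1 and Lamp2 encode the main glycoproteins of the lysosomal membrane. Lamp2, on the X chromosome (ENSMUSG00000016534), measured 49.0 and 63.2 TPM in control and 17.4 and 22.3 TPM in DMSO libraries, or 35.4% of the control mean. The difference was -1.45 (SE 0.29, adjusted p = 0.0262), from -1.63 to -1.27 with 1 library left out. Lamp1, on chromosome 8 (ENSMUSG00000031447), whose promoter with 4 copies of the core is printed above, measured 42.4 and 50.5 TPM in control and 23.1 and 23.5 TPM in DMSO libraries. The difference of -0.96 (SE 0.27) had an adjusted p of 0.0489, close to the threshold, and the groups of both genes stood apart. Mcoln1, the calcium channel TRPML1 of the same membrane, was near 1 to 3 TPM in all libraries and its groups overlapped.

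Among the proteases, Ctsb fell and Ctsl and Ctsd were not called. Ctsb, on chromosome 14 (ENSMUSG00000021939), encodes the cysteine protease cathepsin B and measured 80.5 and 82.6 TPM in control and 30.0 and 37.3 TPM in DMSO libraries. The DMSO mean was 41.3% of the control mean (-1.26, SE 0.26, adjusted p = 0.0281), and 13.0% of its words are shared, mostly with Fdft1. Ctsl, which encodes cathepsin L and was the most abundant lysosome gene of the list, measured 458 and 691 TPM in control and 320.4 and 411 TPM in DMSO libraries. Its groups did not overlap, and its difference of -0.63 (SE 0.30) had an adjusted p of 0.163, with 28.2% of its words shared. Ctsd, the aspartic protease cathepsin D, overlapped between groups at 5.33 and 7.66 against 3.14 and 7.18 TPM, with 33.2% of its words shared.

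TFEB and TFE3 activate lysosome and autophagy genes when they enter the nucleus. Tfeb was low, at 2.35 and 4.75 TPM in control and 0.235 and 1.14 TPM in DMSO libraries (-1.43, SE 0.45, adjusted p = 0.0645). Tfe3 was the more abundant and nearly level, at 16.6 and 15.5 TPM in control and 15.7 in both DMSO libraries. Its difference was -0.03 (SE 0.28, adjusted p = 0.943), with a sign that depended on the scaling, and Mitf of the same family was listed at 0 in all 4 libraries. RNA levels do not show where these proteins were in the cell.

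Wider lists of the same pathway held 110 further genes, chosen by function with earlier results of these data known. They were measured in the same 4 libraries, and 81 of them were tested. Of these, 23 fell (28.4%) and 2 rose (2.47%), against the same 14.1% and 6.42% of all genes, and the median difference was -0.49. Atg16l2 among the genes that fell and Tpp1 among those that rose were under 1 TPM on average in one group and were tested only through the other. With median-ratio scaling the split was 16 lower and 4 higher, and with quantile normalization 18 and 6. Without control replicate 1, control replicate 2 or DMSO replicate 1, the 81 genes lost their calls in both directions. The lower calls over all genes tested were lost too. The median difference of the 81 was -0.574, -0.485 and -0.5 in these fits, in that order. Vamp7, Vps33a, Atp6v0a2, Atp6v1e1, Glb1, Galns, Man2b1 and Tfec were not analysed here.

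Of 10 other autophagosome formation genes, 5 fell (50.0%, against 14.1% of all genes tested). Tmem41b, which encodes a scramblase of the endoplasmic reticulum, was the most abundant at 997 and 1147 TPM in control and 364 and 470.4 TPM in DMSO libraries (-1.37, adjusted p = 0.0239). Vmp1, whose protein works with TMEM41B, measured 136 and 194 against 39.6 and 75.3 TPM (-1.55, adjusted p = 0.0361). Both scramblase genes were thus lower in every DMSO library than in any control library. Wdr45, a WIPI family gene, measured 76.0 and 67.2 against 18.3 and 27.9 TPM (-1.62, adjusted p = 0.0237), and Atg16l2, a paralog of Atg16l1, measured 4.45 and 11.2 against 0.373 and 0.537 TPM (-2.49, adjusted p = 0.0228). The mean of Atg16l2 was under 1 TPM in the DMSO libraries.

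Of 12 other receptors and adaptors, 3 fell (25.0%, against 14.1% of all genes) and 1 rose (8.33%, near the 6.42% of all genes). Receptors that mark mitochondria for autophagy were among both. Bnip3 measured 461 and 473 TPM in control and 157 and 202 TPM in DMSO libraries (-1.39, adjusted p = 0.0226). Fundc1, another receptor of the outer mitochondrial membrane, measured 159.6 and 118 TPM in control and 511 and 404 TPM in DMSO libraries (1.72, SE 0.28, adjusted p = 0.0207). Neither gene's groups overlapped. Tax1bp1, a ubiquitin-binding receptor, fell from 10.4 and 23.6 to 4.18 and 3.65 TPM (-1.77, adjusted p = 0.0365), and Phb2, an inner membrane protein that binds LC3, fell from 6.34 and 9.16 to 1.08 and 2.29 TPM (-1.72, adjusted p = 0.0317).

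Of 11 fusion and tethering genes, 3 fell (27.3%, against 14.1%) and 0 rose, with 6 differences below 0 and 5 above, near the 53.2% below 0 of all genes. Vps16 and Vps18 encode shared core subunits of the HOPS and CORVET tethers, and Vamp8 a SNARE of autophagosome fusion. Vps16 measured 84.6 and 87.2 against 29.6 and 47.8 TPM (-1.17, adjusted p = 0.0436), Vps18 6.59 and 5.73 against 0.934 and 1.83 TPM (-1.61, adjusted p = 0.0310), and Vamp8 33.7 and 41.3 against 16.8 and 11.9 TPM (-1.34, adjusted p = 0.0325). In none of the 3 did the groups overlap. Over the 11 genes, both DMSO libraries lay below both control libraries for 5 (45.5%), near the 38.7% of all genes tested. Rab7, the GTPase of late endosomes and the most abundant of the 11, is named after its values were seen and was not called, at 175 and 153 TPM in control and 316 and 245 TPM in DMSO libraries (0.76, SE 0.26, adjusted p = 0.0803). Its DMSO libraries lay above its control libraries, as did those of Snap29, Vps39 and Vps41 (36.4% of the 11, near the 31.1% of all genes). The V-ATPase, the proton pump that acidifies the lysosome, had 1 of 13 subunit genes called lower (7.69%), against 14.1% of all genes tested, so the count is no result about the pump. This was Atp6v1a, the catalytic A subunit, at 31.3 and 35.4 TPM in control and 12.6 and 10.2 TPM in DMSO libraries (-1.47, adjusted p = 0.0245). Of the 13 differences, 9 were below 0, against 53.2% of all genes tested, with a median of -0.41. Atp6v1f, another subunit of the pump, was listed at 0 in all 4 libraries, so an exact 0 in this table may be a failed estimate.

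Of 23 other lysosomal hydrolases, 7 fell (30.4%, against 14.1% of all genes) and 1 rose (4.35%, against 6.42%). Smpd1, acid sphingomyelinase, measured 28.6 and 38.8 TPM in control and 4.66 and 5.15 TPM in DMSO libraries (-2.54, SE 0.31, adjusted p = 0.0181). Ctsz, the carboxypeptidase cathepsin Z, measured 53.0 and 59.3 against 8.49 and 14.8 TPM (-2.22, adjusted p = 0.0185). In both genes the groups lay far apart. Ctsc, cathepsin C, measured 6.78 and 13.5 against 1.73 and 2.16 TPM (-1.85, adjusted p = 0.0298). Tpp1, tripeptidyl peptidase 1, was the gene that rose, from 0.403 and 0.176 to 3.32 and 2.03 TPM (1.49, adjusted p = 0.0380), and its control mean was under 1 TPM.

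Of 12 other lysosomal membrane and transport genes, 4 fell (33.3%, against 14.1% of all genes), and Cd63 had the largest difference of all listed and wider genes. Cd63, a tetraspanin of late endosomes and lysosomes, measured 479 and 665 TPM in control and 48.8 and 105 TPM in DMSO libraries (-2.96, SE 0.40, adjusted p = 0.0181). Ostm1, a subunit of the lysosomal chloride transporter ClC-7, measured 15.0 and 18.4 against 2.19 and 6.32 TPM (-1.86, adjusted p = 0.0361). In both genes the DMSO libraries lay well below the control libraries. Tmem192 measured 6.57 and 10.2 against 1.99 and 2.82 TPM (-1.44, adjusted p = 0.0386), and Npc2, a soluble protein that hands cholesterol to NPC1 for export, 32.6 and 36.8 against 14.5 and 16.1 TPM (-1.13, adjusted p = 0.0361).

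**Figure D4:**
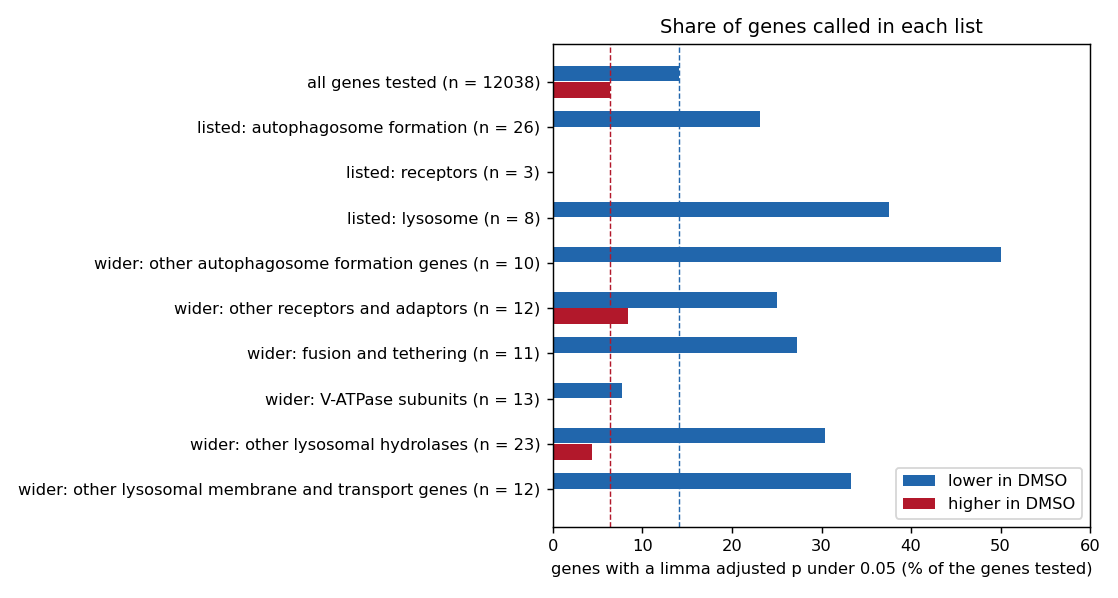
Share of the genes tested that were called lower (blue) or higher (red) in DMSO-treated embryos at a limma adjusted p under 0.05, in % on the horizontal axis, for all genes tested, the 3 listed groups and 6 wider lists, with dashed lines at the shares of all genes (14.1% and 6.42%). The shares called lower run from 0% in the 3 receptors to 50.0% in the 10 other formation genes.

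Markers of the embryo and of other cells were read beside these results. The 10 oocyte and early embryo genes summed to 1113 and 715 TPM in control and 2873 and 2217 TPM in DMSO libraries, with Oosp1 the most abundant. Of the 9 tested, 2 rose, Oosp1 (877 and 576 against 2086 and 1763 TPM) and the oocyte growth factor gene Bmp15 (102 and 56.0 against 544 and 285 TPM), against 6.42% of all genes called higher. Both DMSO libraries lay above both control libraries for 7 of the 9 (77.8%, against 31.1% of all genes tested). Besides the 2 called genes these were Zp1, Zp2, Gdf9, Ooep and Zar1. At an unadjusted p under 0.05, limma gave 6 higher and 0 lower, against 15.8% and 24.3% of all genes tested. Padi6 (0.86 and 3.32 against 0 and 1.65 TPM) and Zp3 (1.56 and 2.35 against 1.44 and 0.956 TPM) had differences below 0 and were not called. The defining maternal gene Nlrp5 was under 1 TPM in every library and listed at 0 in 1 library of each group. The 5 genes transcribed at the 2-cell stage summed to 649 and 444 TPM in control and 1919 and 1386 TPM in DMSO libraries, with Tcstv3 the most abundant, and 3 of the 5 rose, against the same 6.42%. Zscan4c and Zscan4d of that list were not called, and the groups overlapped in Zscan4d (8.62 and 8.28 against 9.24 and 7.12 TPM). Both marker sums, the first of them mostly Oosp1, were thus higher in the libraries in which most autophagy and lysosome genes were lower, and their part in the results was not tested.

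Markers of other cells gave the following sums, in which a listed 0 may be a failed estimate, as for Atp6v1f. The 8 cumulus and granulosa genes summed to 2.00 and 0.932 TPM in control and 2.42 and 2.19 TPM in DMSO libraries, with Tnfaip6 the most abundant by the mean of all 4 libraries though below Cyp19a1 in all but control replicate 1, Amh listed at 0 in every library and 0 genes tested. The 7 sperm genes summed to 2.96 and 3.38 against 13.5 and 8.69 TPM. Both genes tested, Prm2 and Tnp1, rose, against 6.42% of all genes called higher. Tnp1 had a mean under 1 TPM in the control libraries and was tested only through its DMSO level, and Tnp2 and Smcp were listed at 0 throughout. The 7 blood genes summed to 14.2 and 4.20 against 12.3 and 29.0 TPM, led by Hba-a2, with 4 tested and 0 called, and Hbb-bt was listed at 0 throughout. In DMSO replicate 2 the blood sum held 11.7 TPM of Hba-a2 and 9.39 TPM of Lyz2. Lyz2 was under 1 TPM in every other library. The 4 trophectoderm genes, of a later embryonic lineage, summed to 13.1 and 7.60 against 12.5 and 11.3 TPM, led by Krt18 on average and by Krt8 in the control libraries, with 3 tested and 0 called. Over all genes tested, 14.1% were called lower and 6.42% higher, so the 0 calls among so few blood and trophectoderm genes are no result. The part of these cells in the results was not tested.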

How the data were processed

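The 2 control and 2 DMSO libraries were analysed from a table of TPM values per gene that the authors deposited. The authors estimated transcript abundance with kallisto on the Ensembl GRCm38 (mm10) transcriptome and summed it per gene with tximport, and their own test ran in DESeq2. The deposited unit is TPM, so no count test was used and depth is unknown. Per-sample columns not used numbered 0. GENCODE M21 named 29589 of the 30049 gene identifiers.

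Genes averaging 1 TPM or more over the libraries entered a limma 3.58.1 fit of log2(TPM + 1) (R 4.3.3, empirical Bayes with a trend, no block) with Benjamini-Hochberg adjustment at 0.05. The fit was tested on simulated data. Alternatives were a pseudocount of 0.1, no filter, a minimum mean of 5 TPM, no trend, median-ratio scaling, quantile normalization, a replicate block and each library left out. Shared sequence is the percent of a gene's 31-base transcript words found in another gene. Promoters came from RefSeq (GRCm38.p6). Summaries used Python 3.11.15, pandas 2.3.3 and numpy 2.4.6, with plots in matplotlib 3.10.9.

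Full values were given for listed genes that were called or were the most abundant of their class, and for at most 4 called genes per wider list and direction, by size of difference, of which 1 is not reported here. The members, lists and tests were chosen with earlier results of these data known.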

Additional observations from a re-analysis of the deposited data

How the results depend on the processing

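Of the 9 listed genes called lower, all 9 were among the 18 called with a replicate block, and 5 or 6 of them were called with median-ratio scaling, quantile normalization, no trend or a pseudocount of 0.1. A minimum mean of 5 TPM gave 12 calls among the 30 listed genes tested, 8 of them among the 9, and 1684 among all 7470 tested. Without the filter 0 were, with 17 at an unadjusted p under 0.05. With 1 library left out, calls ran from 0 to 8 among listed genes (lower), 0 to 15 and 0 to 3 among wider genes (lower, higher) and 0 to 1276 and 0 to 607 over all genes. Over all genes, 1697 were called lower and 773 higher in the fit as reported, 0 and 0 without the filter (3244 and 2124 at an unadjusted p under 0.05), 1121 lower and 1076 higher after quantile normalization and 1261 and 949 after median-ratio scaling. Wider genes gave 0 and 0 without the filter (33 lower and 9 higher unadjusted), 1 higher with a pseudocount of 0.1, 4 with median-ratio scaling and 6 with quantile normalization. Median-ratio scaling called 5 listed genes lower. The median difference of the listed genes was -0.45 after quantile normalization, and -0.84 to -0.78 with 1 library left out. The difference of Tfe3 turned to 0.066 with median-ratio scaling and 0.113 with quantile normalization, and ran from -0.074 to 0.015 with 1 library left out. The cause of these changes was not tested. Depth is unknown, so the counting error of low genes cannot be given.

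Both groups use replicate numbers 1 and 2, but no label ties them to a batch, so they only name the samples. Replicate 1 minus replicate 2 in control correlated with that in DMSO at r = 0.354 across 12038 genes, which are not independent. With the replicate block, 2981 genes were called lower and 2151 higher over all genes, 18 lower and 3 higher (Atg4a, Uvrag and Wipi1) among listed genes, and 28 lower and 8 higher among wider genes.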
